A study of Homo sapiens with 6 samples.

Results

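The genes described here are 37 genes of glycolysis and of the response to low oxygen, out of 35052 genes to which the deposited transcripts could be joined. They were chosen by name from knowledge of the pathway, with earlier results of these data known, and were matched by gene symbol. They comprise the glucose transporters SLC2A1 and SLC2A3, enzymes of each step from hexokinase to lactate dehydrogenase, the lactate exporter SLC16A3, kinases that regulate phosphofructokinase or pyruvate dehydrogenase, the hypoxia-inducible transcription factor subunit HIF1A, and further genes known to be induced by HIF.

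RNA was sequenced from EoL-1, a human line established from an eosinophilic leukaemia that is used as a model of eosinophils. The 3 ATF3 knockout libraries came from EoL-1 cells edited with CRISPR/Cas9, and the 3 wild-type libraries came from EoL-1 cells labelled as wild type. Both were grown in the same serum-supplemented RPMI medium, and no drug, hypoxia or other treatment is named for either. The labels do not say whether the knockout cells are a clone or a pool, or whether replicates were separate cultures, and all p-values therefore reflect no more than the differences among these 6 samples, which may be technical.

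Glycolysis turns glucose into pyruvate. Pyruvate is then either reduced to lactate by lactate dehydrogenase and exported, or oxidised in mitochondria by pyruvate dehydrogenase, an enzyme that the PDK kinases switch off. HIF1A protein is destroyed when oxygen allows the prolyl hydroxylases EGLN1 to EGLN3 to mark it, and when it persists it pairs with ARNT and raises many of the genes described here.

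The libraries held between 26766103 and 30117281 estimated reads. ATF3, a stress-induced transcription factor, had 146, 229 and 132 reads in knockout replicates 1 to 3, against 634, 462 and 632 in wild-type replicates 1 to 3. It was 3.36-fold lower in knockout libraries (log2 fold change -1.75, SE 0.25, edgeR adjusted p = 0.0098), and its groups did not overlap, so ATF3 mRNA was reduced but still present. The call was lost without wild-type replicate 1 (adjusted p = 0.0527). The labels give the cell type as eosinophil. Of the eosinophil genes examined, EPX, PRG3, CLC, IL5RA and GATA1 had no reads in any wild-type library and at most 2 in a knockout library, while RNASE2 and RNASE3 were present. The summed level of the 13 eosinophil markers was 124 to 226 CPM (reads per 1e6 reads, with library sizes scaled by the TMM method) in knockout libraries and 39.1 to 55.5 CPM in wild-type libraries. The 10 monocyte and macrophage markers summed to 694 to 1356 CPM in knockout and 193 to 665 CPM in wild-type libraries, and the 10 neutrophil and granule markers found to 312 to 599 CPM in knockout and 94.1 to 170 CPM in wild-type libraries. Of the tested markers, 3 of 4 eosinophil, 2 of 7 monocyte and macrophage and 2 of 5 neutrophil and granule genes were called higher. The neutrophil and granule marker CTSG was lower without passing the test (log2 fold change -1.20, edgeR adjusted p = 0.0679). The monocyte and macrophage marker FCGR1A had a log2 fold change of -0.15 (edgeR adjusted p = 0.831). Lymphocyte markers summed to 133 to 174 CPM in knockout and 120 to 146 CPM in wild-type libraries, with 0 of 3 called by edgeR and 2 at an unadjusted p below 0.05. Erythroid and megakaryocyte markers summed to 0.93 to 1.88 CPM in knockout and 0.32 to 0.63 CPM in wild-type libraries, with the 1 tested gene called higher. Mitochondrially encoded genes held 4.70 to 5.84% of reads in knockout libraries and 3.59 to 3.81% in wild-type libraries. The part of these differences in the results below was not tested.

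The glycolysis and hypoxia genes did not shift as a group. PFKFB4, SLC16A3, PKM and PFKFB3 rose in knockout cells, PDK1, HK2 and PFKP fell, and the other 27 tested members did not pass the test (edgeR's quasi-likelihood test, Benjamini-Hochberg adjusted p below 0.05 over 13131 genes). The 4 rises stand beside 11.4% of all tested genes called higher, and the 3 falls beside 9.72% called lower. Taken in either direction, 7 of 34 tested members (20.6%) were called, against 21.1% of all tested genes, so the share called was that of the transcriptome at large. The median log2 fold change was 0.04 over the tested members and 0.0054 over all tested genes, with 19 members positive and 15 negative. The members together held 1.04, 1.06 and 1.15% of reads in knockout replicates 1 to 3, against 1.10, 1.09 and 1.11% in wild-type replicates 1 to 3. Of the 37 members, 3 were too low to test: EGLN3 had 0 reads in every library, which allows up to 0.104 to 0.116 CPM at 3 reads per library (counting error only), and HK3 and P4HA2 had 22 and 13 reads over all 6 libraries. In bulk RNA, fewer cells that express a gene and less of its RNA per cell cannot be told apart.

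**Figure D1:**
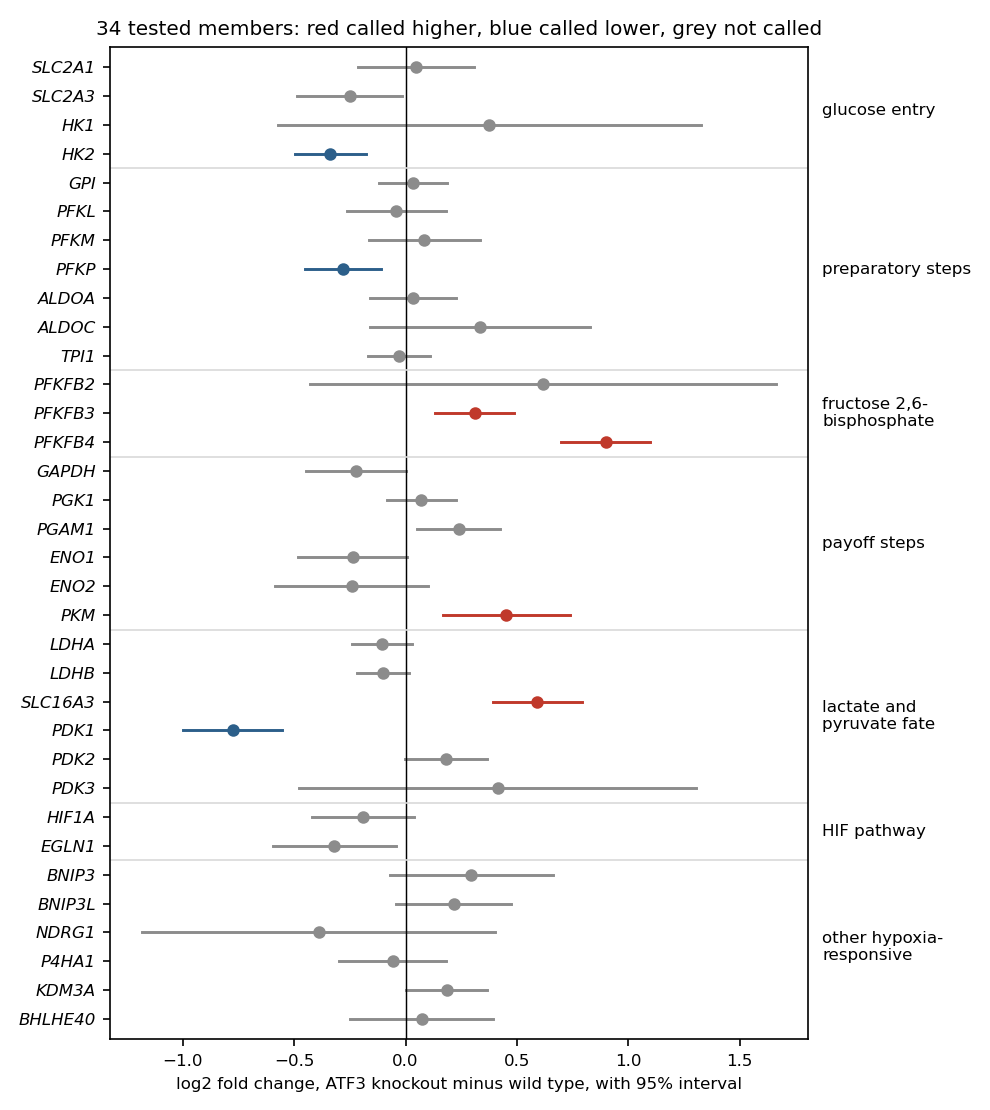
Log2 fold change of the 34 tested members, ATF3 knockout minus wild type, with its 95% interval from edgeR, ordered along the pathway; red marks called higher, blue called lower and grey not called. The called values run from -0.78 for PDK1 to 0.90 for PFKFB4, and positive and negative values occur in every role group except the PFKFB enzymes and the HIF pathway.

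HIF bound to ARNT recognises the core letters ACGTG or GCGTG, and the windows before the start site are shown for the 4 called members with the smallest adjusted p, 2 that rose (PFKFB4, SLC16A3) and 2 that fell (PDK1, HK2). The sequences are the 250 bases before the RefSeq start (GRCh38.p14), written 5′ to 3′ on the strand of the gene. Each was taken from the window whose start lies nearest to that of the gene's most abundant transcript over all 6 libraries. Capitals mark either core on either strand.
PFKFB4 (chr3:48556804-48557053, minus strand): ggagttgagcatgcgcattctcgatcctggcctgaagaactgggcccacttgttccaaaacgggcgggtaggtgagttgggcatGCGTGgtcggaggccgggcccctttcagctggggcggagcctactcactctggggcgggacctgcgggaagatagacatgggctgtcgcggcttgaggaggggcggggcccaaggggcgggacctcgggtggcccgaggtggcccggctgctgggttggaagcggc
SLC16A3 (chr17:82231982-82232231, plus strand): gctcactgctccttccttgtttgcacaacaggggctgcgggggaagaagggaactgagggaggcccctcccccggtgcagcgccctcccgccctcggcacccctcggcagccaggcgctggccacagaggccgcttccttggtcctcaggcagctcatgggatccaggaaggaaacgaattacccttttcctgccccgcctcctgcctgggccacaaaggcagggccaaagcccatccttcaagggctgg
PDK1 (chr2:172555840-172556089, plus strand): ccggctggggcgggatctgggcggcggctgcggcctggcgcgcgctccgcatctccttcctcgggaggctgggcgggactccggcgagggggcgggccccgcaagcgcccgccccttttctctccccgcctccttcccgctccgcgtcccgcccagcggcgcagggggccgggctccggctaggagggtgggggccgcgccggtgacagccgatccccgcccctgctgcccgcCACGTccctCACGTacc
HK2 (chr2:74833877-74834126, plus strand): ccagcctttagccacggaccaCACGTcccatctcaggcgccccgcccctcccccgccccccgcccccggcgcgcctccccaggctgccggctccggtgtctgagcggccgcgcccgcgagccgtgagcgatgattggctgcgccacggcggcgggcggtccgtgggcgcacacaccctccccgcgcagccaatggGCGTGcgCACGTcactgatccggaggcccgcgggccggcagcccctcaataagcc
The PFKFB4 window holds a core that begins at position -166 from the start, the PDK1 window holds cores at -17 and -8, and the HK2 window holds cores at -229, -55 and -48. The SLC16A3 window shown holds none, while ACGTG and GCGTG both occur among the other windows of SLC16A3 (5 windows in all). In every knockout library and in wild-type replicate 2, another SLC16A3 transcript held more reads than the one used to choose that window. Each of the 7 called members had a core in at least 1 of its windows. So did 29 of all 33 members with windows (87.9%) and 52.4% of all genes with windows. Members had more windows per gene to search, 63 for 33 genes against 35116 for 27305 genes. In the single window nearest to the most abundant transcript, 25 of 33 members and 5 of the 7 called members held a core. Cores thus occur in windows of members that rose and of members that fell. RefSeq windows, each of 300 bases (250 before the start and 50 from it on), were used for 33 members; those of SLC2A3, PFKFB2, BNIP3L and NDRG1 were not analysed here. Of 63 windows of members, 40 (63.5%) held either core, against 17012 of 35116 windows of all genes (48.4%). Of the same 63 windows, 1 (1.59%, LDHA) held TGACGTCA, the element that ATF family proteins bind, against 1.85% of all windows. The AP-1 letters TGANTCA were in 4 (6.35%) against 7.71% of all windows, and the amino acid response letters TGATGCAA in 2 (3.17%, both of HK1) against 0.866%. Both strands were searched. A match describes letters and is not evidence of a bound site.

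Of the genes for glucose entry, SLC2A1 and SLC2A3 encode the main glucose transporters of blood cells. HK2 and HK1 encode hexokinases that trap glucose as its phosphate. The values are of mRNA, and glucose uptake was not measured. HK2 (ENSG00000159399.9, chromosome 2, 74833981 to 74893359, plus strand of GRCh38) had 166, 158 and 179 CPM in knockout replicates 1 to 3, against 209, 220 and 206 CPM in wild-type replicates 1 to 3. Every knockout library lay below every wild-type library. HK2 fell 1.26-fold in knockout cells (log2 fold change -0.34, SE 0.07, edgeR adjusted p = 0.0189), and the call was lost without knockout replicate 1 (adjusted p = 0.0583), wild-type replicate 1 (0.0810) or wild-type replicate 3 (0.0669).

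HK1 differed more among replicates than between groups. It had 36.9, 33.1 and 13.0 CPM in knockout libraries, against 23.1, 13.9 and 26.9 CPM in wild-type libraries, with knockout replicate 3 and wild-type replicate 2 low (log2 fold change 0.38, 95% interval -0.58 to 1.33). SLC2A1 averaged 79.9 ± 3.83 CPM in knockout and 77.4 ± 11.6 CPM in wild-type libraries (SD, n = 3 each), and SLC2A3 81.6 ± 5.25 CPM in knockout and 97.2 ± 11.6 CPM in wild-type libraries. Neither transporter passed the test (edgeR adjusted p = 0.794 and 0.115), and the groups of both overlapped. HK3 lay at 0.14 to 0.27 CPM in knockout and 0 to 0.25 CPM in wild-type libraries.

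The preparatory steps isomerise, phosphorylate and split the sugar, and of their 7 tested genes PFKP, the platelet-type phosphofructokinase, was the one that passed the test. PFKP (ENSG00000067057.16, chromosome 10, 3066333 to 3137712, plus strand) had 44.6, 47.7 and 46.4 CPM in knockout libraries, against 60.3, 53.9 and 54.4 CPM in wild-type libraries, and the groups did not overlap. It fell 1.22-fold (log2 fold change -0.28, SE 0.07, edgeR adjusted p = 0.0350). The call was lost without knockout replicate 1 (adjusted p = 0.102), knockout replicate 2 (0.0629), wild-type replicate 1 (0.137) or wild-type replicate 3 (0.0948), and with no filter on low counts (0.05002), and with effective lengths as an offset the value was 0.19 (adjusted p = 0.697). That offset weights transcripts by the deposited TPM, and a 143-base PFKP transcript (ENST00000495715.1) with 0 to 5.23 reads per library was given 0 to 36.7 TPM.

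The other phosphofructokinase subunits, PFKL (liver type) and PFKM (muscle type), had log2 fold changes of -0.04 and 0.09, and GPI, ALDOA and TPI1 had 0.03, 0.03 and -0.03. Their 95% intervals all lay within -0.27 and 0.34. ALDOC, an aldolase known from brain, had 16.5, 17.0 and 27.5 CPM in knockout libraries, against 14.4, 16.6 and 17.5 CPM in wild-type libraries, with knockout replicate 3 standing off (log2 fold change 0.33, edgeR adjusted p = 0.289). Exons of PFKM and of SENP1 on the opposite strand share 628 bases, and the sources used here do not give the strand setting of the quantification.

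Among the members, the largest rise was in the enzymes that make and break fructose 2,6-bisphosphate, the activator of phosphofructokinase. PFKFB4, a bifunctional enzyme of this family that is induced by hypoxia, had 27.5, 27.7 and 27.7 CPM in knockout libraries, against 13.7, 16 and 14.7 CPM in wild-type libraries. The 3 knockout libraries were nearly level with each other and all lay above the highest wild-type library. PFKFB4 (ENSG00000114268.11, chromosome 3, 48517684 to 48562015, minus strand) rose 1.86-fold (log2 fold change 0.90, SE 0.08, edgeR adjusted p = 0.0079), and lost its call only without wild-type replicate 1 (adjusted p = 0.0503) among the alternatives tried. Its exons share 289 bases with those of UCN2 on the same strand, which had 443.8 reads over all libraries against 3521.2 for PFKFB4.

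PFKFB3, the family member with the strongest kinase activity, had 36.9, 35.2 and 32.3 CPM in knockout libraries, against 27.4, 28.9 and 27.9 CPM in wild-type libraries. The groups did not overlap, and PFKFB3 (ENSG00000170525.20, chromosome 10, 6144934 to 6254644, plus strand) rose 1.24-fold (log2 fold change 0.31, SE 0.07, edgeR adjusted p = 0.0304). This call was lost without knockout replicate 1 (adjusted p = 0.0875), knockout replicate 2 (0.0696), wild-type replicate 1 (0.130), wild-type replicate 2 (0.0539) or wild-type replicate 3 (0.114), and with the trend on GC content removed (0.109). With effective lengths as an offset the value was -0.85 (adjusted p = 0.216), and a 244-base transcript (ENST00000441697.1) with no reads in knockout libraries and 0, 10.2 and 7.19 reads in wild-type libraries was given 0, 17.4 and 12.5 TPM in wild-type libraries. PFKFB2 had 5.77, 5.75 and 1.85 CPM in knockout libraries, against 2.34, 3.79 and 2.55 CPM in wild-type libraries. Its knockout replicates 1 and 2 were above all wild-type libraries and replicate 3 below them (log2 fold change 0.62, edgeR adjusted p = 0.353).

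**Figure D2:**
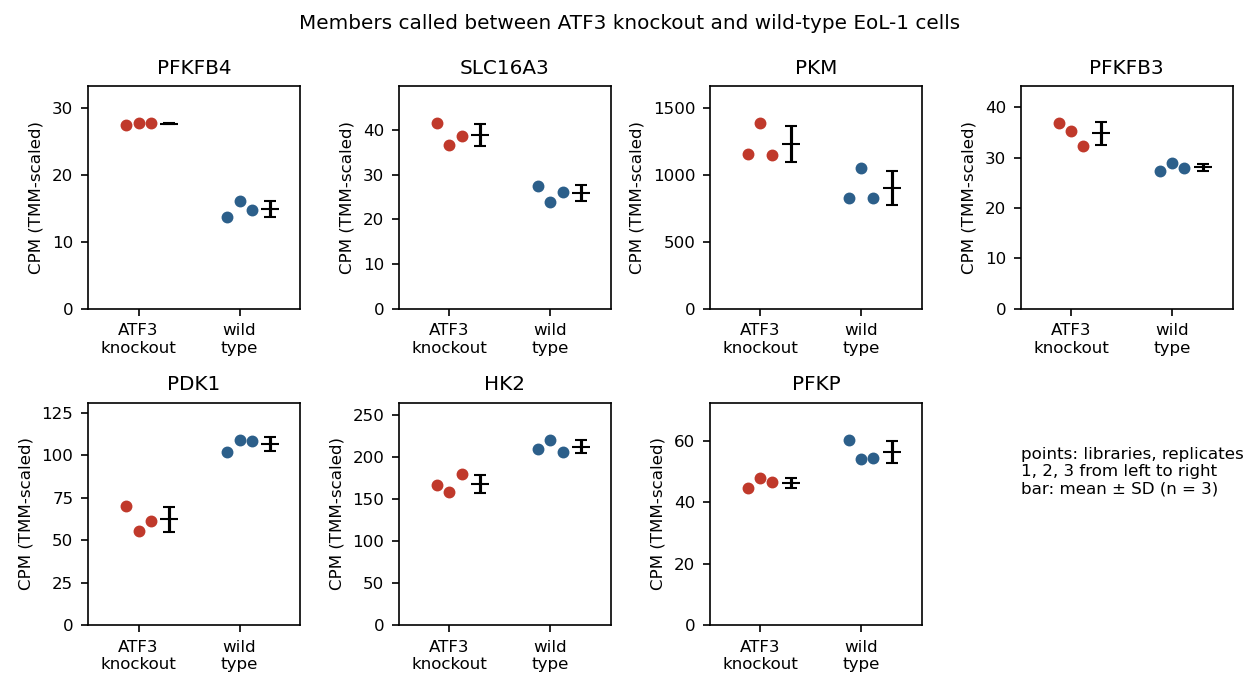
CPM of the 7 called members in each library, ATF3 knockout in red and wild type in blue, with the mean and SD (n = 3 each) beside the points and each axis starting at 0. PFKFB4, SLC16A3, PKM and PFKFB3 lie higher in knockout libraries, and PDK1, HK2 and PFKP lie lower, with no overlap in any of the 7.

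The payoff steps yield ATP and pyruvate and hold the most abundant transcripts of the set. PKM, pyruvate kinase, had 1157, 1384 and 1147 CPM in knockout libraries, against 822, 1046 and 827 CPM in wild-type libraries. Replicate 2 was the highest of each group, and the lowest knockout library still lay above the highest wild-type library. PKM (ENSG00000067225.17, chromosome 15, 72199029 to 72231822, minus strand) rose 1.37-fold (log2 fold change 0.45, SE 0.12, edgeR adjusted p = 0.0401). The call was lost without knockout replicate 1 (adjusted p = 0.0751), knockout replicate 2 (0.0911), knockout replicate 3 (0.0509), wild-type replicate 1 (0.148) or wild-type replicate 3 (0.140), with the GC trend removed (0.0745) and with the effective length offset (0.0943).

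PKM makes the M1 and M2 forms of the enzyme by including either exon 9 (M1) or exon 10 (M2), and the exons are shown because they are what distinguishes the forms in these reads. Both are 167 bases long in GENCODE 29 (GRCh38), and capitals mark the 62 positions at which they differ; the other 105 (62.9%) are identical.
PKM exon 9 (chr15:72203022-72203188, minus strand): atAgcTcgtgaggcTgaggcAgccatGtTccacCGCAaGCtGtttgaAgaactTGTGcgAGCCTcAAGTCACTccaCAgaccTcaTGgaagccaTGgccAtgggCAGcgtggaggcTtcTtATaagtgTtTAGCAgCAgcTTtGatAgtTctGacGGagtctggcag
PKM exon 10 (chr15:72202454-72202620, minus strand): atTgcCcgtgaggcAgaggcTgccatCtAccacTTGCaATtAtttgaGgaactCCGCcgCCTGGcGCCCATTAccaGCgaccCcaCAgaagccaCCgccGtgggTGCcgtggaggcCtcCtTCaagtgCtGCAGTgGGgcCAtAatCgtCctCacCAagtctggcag
Exon 9 transcripts held 7.04, 7.45 and 7.04% of the reads assigned to transcripts with either exon in knockout libraries, against 7.02, 6.26 and 7.20% in wild-type libraries. The mean was 7.18 ± 0.24% in knockout and 6.83 ± 0.50% in wild-type libraries (SD, n = 3 each), the groups overlapped, and the exact permutation p was 0.4 (two-sided). Exon 10 transcripts thus made up most PKM reads in both groups, and 15 transcripts with neither exon held 13.7% of PKM reads in knockout and 15.8% in wild-type libraries.

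GAPDH, the most abundant member, had 2514, 2343 and 2946 CPM in knockout libraries, against 3084, 2843 and 3189 CPM in wild-type libraries. Knockout replicate 3 lay within the wild-type range while replicates 1 and 2 lay below it (log2 fold change -0.22, 95% interval -0.45 to 0.0001, edgeR adjusted p = 0.134). ENO1 (enolase) had the same arrangement of libraries, at 1690, 1537 and 2014 CPM in knockout and 2110, 1937 and 2133 CPM in wild-type libraries (log2 fold change -0.24, edgeR adjusted p = 0.145). Without knockout replicate 3 both passed the test as lower.

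PGAM1, phosphoglycerate mutase, had 323, 363 and 320 CPM in knockout libraries, against 268, 306 and 278 CPM in wild-type libraries. The groups did not overlap, but the difference did not pass the edgeR test (log2 fold change 0.24, adjusted p = 0.0711), although DESeq2 called it higher. PGK1 (phosphoglycerate kinase) had a log2 fold change of 0.07 with a 95% interval of -0.08 to 0.23. ENO2, the enolase named for neurons, averaged 6.19 ± 0.38 CPM in knockout and 7.31 ± 0.81 CPM in wild-type libraries, with overlapping groups.

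At the branch between lactate and mitochondria, SLC16A3 rose and PDK1 fell. SLC16A3 encodes MCT4, a transporter suited to lactate export, and had 41.6, 36.7 and 38.7 CPM in knockout libraries, against 27.5, 23.9 and 26.2 CPM in wild-type libraries. All knockout libraries were above all wild-type libraries. It rose 1.51-fold (ENSG00000141526.16, chromosome 17, 82228397 to 82261129, plus strand; log2 fold change 0.59, SE 0.08, edgeR adjusted p = 0.0098), and the call was lost without wild-type replicate 1 (adjusted p = 0.0510) or wild-type replicate 3 (0.0502). Exons of the far more abundant CSNK1D lie on the opposite strand over 482 bases of SLC16A3, which had 5381 reads against 27188.8 for CSNK1D.

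PDK1, a kinase that inactivates pyruvate dehydrogenase and is a known HIF target, had 70.0, 55.5 and 61.0 CPM in knockout libraries, against 102, 109 and 108 CPM in wild-type libraries. The highest knockout library was well below the lowest wild-type library. PDK1 (ENSG00000152256.13, chromosome 2, 172555373 to 172608669, plus strand) fell 1.71-fold (log2 fold change -0.78, SE 0.09, edgeR adjusted p = 0.0081), and like PFKFB4 lost its call only without wild-type replicate 1 (adjusted p = 0.0503). PDK2, a related kinase, had 20.9, 19.9 and 19.5 CPM in knockout libraries, against 17.0, 18.0 and 18.3 CPM in wild-type libraries. Its groups did not overlap, and it did not pass the test (log2 fold change 0.18, edgeR adjusted p = 0.141). PDK3 was near 1 CPM or below in every library.

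The lactate dehydrogenase subunits LDHA and LDHB had small differences. LDHA averaged 517 ± 24.7 CPM in knockout and 557 ± 1.88 CPM in wild-type libraries, and LDHB 769 ± 15.2 CPM in knockout and 825 ± 11.8 CPM in wild-type libraries (SD, n = 3 each). For both, every knockout library lay below every wild-type library, by log2 fold changes of -0.11 and -0.10 that did not pass the test (edgeR adjusted p = 0.220 and 0.190). Pseudogenes named for LDHA held 2240.6 reads against 89414.2 for LDHA itself, so part of its reads may be assigned elsewhere.

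**Figure D3:**
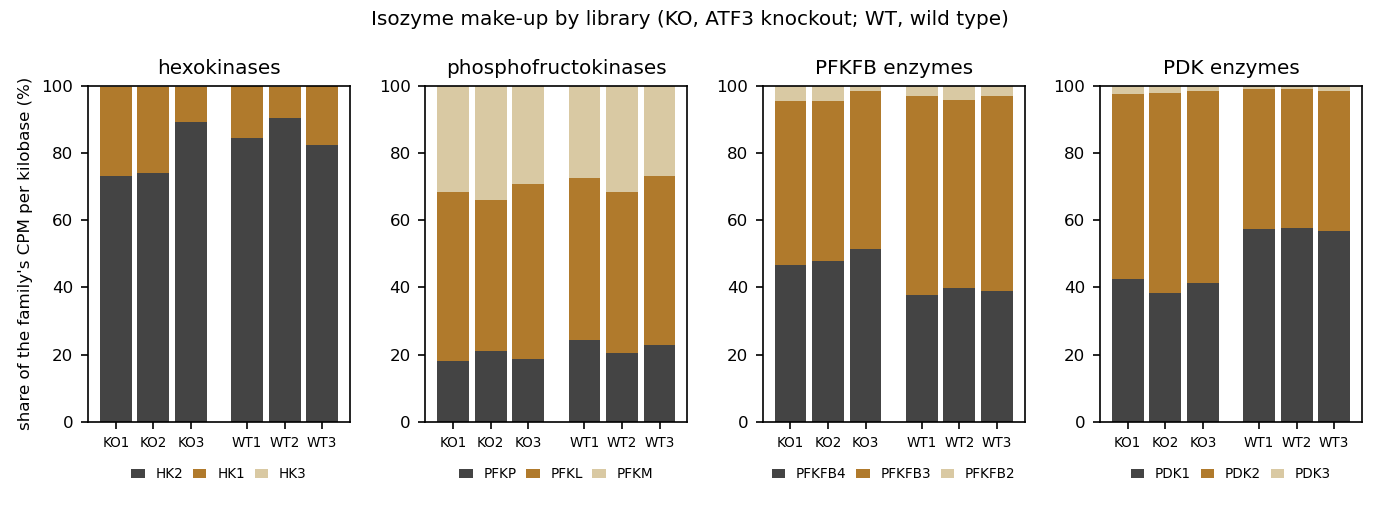
Share of each isozyme in the summed CPM per kilobase of its family, in percent, for hexokinases, phosphofructokinases, PFKFB enzymes and PDK enzymes in each library (KO, ATF3 knockout; WT, wild type). The PDK1 share is 38.3 to 42.4% in knockout libraries and 56.7 to 57.7% in wild-type libraries, while the hexokinase shares of the groups overlap.

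Divided by the read-weighted length of their transcripts, levels of different genes can be set side by side as CPM per kilobase. Of 8 families examined on this scale, the isozyme make-up differed most for the PDK enzymes. PDK1 was 42.4, 38.3 and 41.2% of the summed level of PDK1, PDK2 and PDK3 in knockout libraries, against 57.4, 57.7 and 56.7% in wild-type libraries. On this scale PDK2 was the most abundant of them in each knockout library and PDK1 in each wild-type library. The order in knockout libraries depends on how length is handled. By the deposited TPM, PDK1 (22.1, 19.5 and 22.4) lay above PDK2 (15.6, 11.5 and 14.6) in knockout libraries, and also in wild-type libraries. PFKFB4 was 46.6, 47.8 and 51.4% of the PFKFB level in knockout libraries, against 37.8, 39.7 and 39.1% in wild-type libraries. For both families the groups did not overlap, and the exact permutation p was 0.1, the smallest that 3 against 3 libraries allow (0.267 after adjustment over 8 families).

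HK2 was 78.8 ± 9.0% of the hexokinase level in knockout and 85.8 ± 4.13% in wild-type libraries (SD, n = 3 each), with overlapping groups. The PFKP share of phosphofructokinases was 19.2 ± 1.52% in knockout and 22.5 ± 2.01% in wild-type libraries and also overlapped. LDHA was 30.9 ± 1.17% of LDHA and LDHB in knockout and 31.0 ± 0.24% in wild-type libraries. ALDOA was 97.7 ± 0.45% of the aldolases in knockout and 98.1 ± 0.13% in wild-type libraries, with groups that just failed to overlap.

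Over the set, levels spanned a wide range that both groups shared. GAPDH stood highest at 2432 ± 291 CPM per kilobase in knockout and 2842 ± 166 in wild-type libraries, followed by ENO1 at 1179 ± 164 in knockout and 1390 ± 72.3 in wild-type libraries and LDHB at 820.0 ± 16.2 in knockout and 879 ± 12.6 in wild-type libraries. ALDOA (661 ± 64.9) and PKM (656 ± 71.6) could not be ordered in knockout libraries, where their spreads overlap, whereas ALDOA (646 ± 24.1) lay above PKM (479 ± 68.2) in wild-type libraries. That order depends on how length is handled. By the deposited TPM, ALDOA (561, 579 and 580) and PKM (547, 670 and 491) overlapped in wild-type libraries. The regulators were far lower: PFKFB3 and PFKFB4 lay at 9.35 ± 0.62 and 9.47 ± 0.04 CPM per kilobase in knockout libraries, and at 7.54 ± 0.21 and 5.08 ± 0.41 in wild-type libraries.

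The HIF pathway members showed no call. HIF1A, the oxygen-regulated subunit, had 56.0, 51.5 and 46.9 CPM in knockout libraries, against 64.7, 56.8 and 54.7 CPM in wild-type libraries, and the groups overlapped (log2 fold change -0.19, edgeR adjusted p = 0.199). EGLN1, the main prolyl hydroxylase that marks HIF1A, had 26.5, 23.7 and 32.3 CPM in knockout libraries, against 35.2, 33.8 and 34 CPM in wild-type libraries. Its knockout libraries all lay below the wild-type ones, with a wide spread of their own (log2 fold change -0.32, SE 0.12, edgeR adjusted p = 0.0936), and without knockout replicate 3 it passed as lower. At an unadjusted p below 0.05, 1 of the 2 tested genes would count, and DESeq2 called neither. These values are of mRNA, whereas HIF1A is controlled mainly as protein.

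None of the 6 tested members among the other hypoxia-responsive genes was called by edgeR or DESeq2, and 1 had an unadjusted edgeR p below 0.05. BNIP3 and BNIP3L, mitophagy receptors, had log2 fold changes of 0.30 (95% interval -0.07 to 0.66) and 0.22 (-0.04 to 0.47). KDM3A, a histone demethylase induced by HIF, had 67.5, 66.9 and 60.5 CPM in knockout libraries, against 59.7, 53.1 and 58.6 CPM in wild-type libraries, without overlap (log2 fold change 0.18, edgeR adjusted p = 0.130). P4HA1, a collagen prolyl hydroxylase subunit, and BHLHE40, a transcriptional repressor, had log2 fold changes of -0.06 and 0.07.

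NDRG1, a stress-responsive gene often used as a hypoxia marker, had the widest spread in this group. It had 81.0, 97.7 and 181 CPM in knockout libraries, against 179, 106 and 186 CPM in wild-type libraries (log2 fold change -0.39, 95% interval -1.18 to 0.40). Knockout replicate 3 was close to wild-type replicates 1 and 3, and wild-type replicate 2 was close to knockout replicates 1 and 2.

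**Figure D4:**
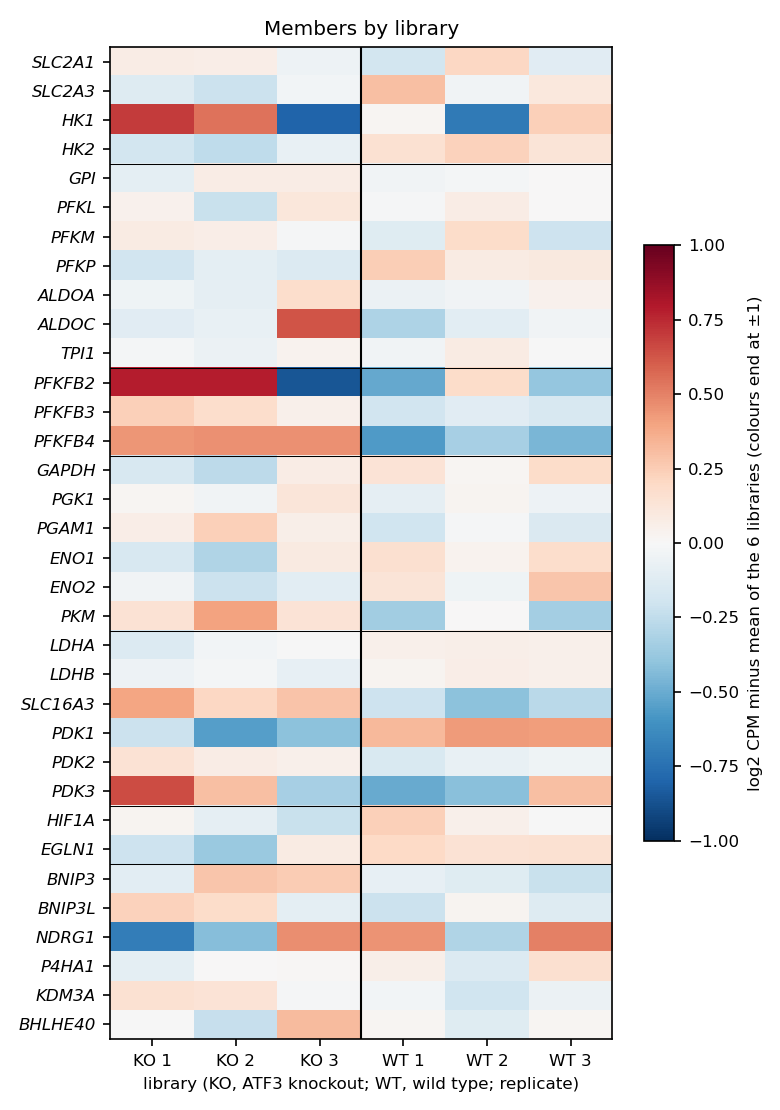
Log2 CPM of each tested member minus its mean over the 6 libraries, with ATF3 knockout replicates 1 to 3 left of the line and wild-type replicates 1 to 3 right of it; rows follow the pathway. PFKFB4, SLC16A3 and PDK1 separate the groups in every library, while HK1, PFKFB2 and NDRG1 differ most between knockout replicate 3 and the other two knockout replicates.

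Most members were steady within a group. The ratio of the highest to the lowest library had a median of 1.14 over the 34 tested members in knockout and 1.12 in wild-type libraries. It exceeded 1.5 for 5 members in knockout libraries (HK1, ALDOC, PFKFB2, PDK3 and NDRG1) and for 4 in wild-type libraries, the same without ALDOC. For all 5, knockout replicate 3 was the library farthest from the others: HK1 and PFKFB2 were at 0.37 and 0.32 of the mean of replicates 1 and 2, and NDRG1 was at 2.02 times that mean. Of the 34 tested members, 13 had no overlap between groups, which is 38.2% against 43.5% of all tested genes.

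At the level of transcripts, 192 of 472 transcripts of members were tested. By edgeR 0 were called, against 0% of all 50394 tested transcripts. At an unadjusted edgeR p below 0.05 there were 22 of the 192, against 7899 of all 50394. DESeq2 called 15 of the member transcripts. Its count over all transcripts is not given here, so the 15 have no background to be set against. The main PFKFB3 transcript (ENST00000379789.8) had 872, 896 and 894 reads in knockout libraries, against 682, 686 and 608 reads in wild-type libraries, and made up 92.7 ± 1.96% of PFKFB3 reads in knockout and 84.2 ± 5.21% in wild-type libraries (edgeR adjusted p of its level 0.0795). The main HK1 transcript (ENST00000359426.6) held 96.9 ± 0.53% of HK1 reads in knockout and 94.4 ± 1.41% in wild-type libraries. These shares are estimates of the quantification and carry no test of their own.

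Both of the main PKM transcripts contain exon 10. ENST00000335181.10 held 50.5 ± 1.53% of PKM reads in knockout and 46.6 ± 2.53% in wild-type libraries, and ENST00000389093.7 held 29.5 ± 1.5% in knockout and 31.3 ± 1.58% in wild-type libraries. The main exon 9 transcript, ENST00000568459.5, held 5.77 ± 0.22% in knockout and 5.15 ± 0.31% in wild-type libraries. For LDHA, ENST00000379412.9, ENST00000545215.5 and ENST00000543445.5 held 68.0, 17.4 and 7.15% of reads on average in knockout libraries, against 66.7, 18.5 and 7.48% in wild-type libraries, with overlapping groups for each.

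Other genes of the same pathways were examined as lists, with 21.1% of all tested genes called and a median log2 fold change of 0.0054 over all tested genes as the background. Of 9 tested paralogs and side enzymes of glycolysis, 4 rose and 0 fell, and the median log2 fold change was 0.37. TIGAR, a phosphatase that lowers fructose 2,6-bisphosphate, had 50.9, 51.7 and 40.3 CPM in knockout libraries, against 24.9, 30.7 and 16.4 CPM in wild-type libraries (log2 fold change 0.99, SE 0.22, edgeR adjusted p = 0.0251). MINPP1, an inositol phosphate phosphatase (0.49, adjusted p = 0.0233), and SLC2A6, an intracellular member of the glucose transporter family (1.54, adjusted p = 0.0436), rose as well, as did BPGM, bisphosphoglycerate mutase (0.37, adjusted p = 0.0446), which was named after its values were seen. All 4 had groups without overlap. The calls of TIGAR, MINPP1 and SLC2A6 were all lost without knockout replicate 1 (adjusted p 0.0694 to 0.109), wild-type replicate 1 (0.0947 to 0.109) or wild-type replicate 3 (0.0539 to 0.117), those of TIGAR and MINPP1 without knockout replicate 2 (0.0618 to 0.0681), and that of SLC2A6 without knockout replicate 3 (0.0909).

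Of 14 tested genes of pyruvate and lactate handling, 0 rose and 3 fell, with a median log2 fold change of -0.14 and 12 of 14 negative. PCK2, mitochondrial phosphoenolpyruvate carboxykinase, had 82.1, 62.5 and 96.6 CPM in knockout libraries, against 135, 115 and 142 CPM in wild-type libraries (log2 fold change -0.70, SE 0.16, edgeR adjusted p = 0.0273). SLC16A1, the lactate transporter MCT1, fell by 0.27 on the log2 scale (edgeR adjusted p = 0.0485), in the opposite direction to SLC16A3. PDPR, a regulatory subunit of pyruvate dehydrogenase phosphatase, fell by 0.25 (edgeR adjusted p = 0.0302). The calls of PCK2, PDPR and SLC16A1 were all lost without knockout replicate 1 (adjusted p 0.0738 to 0.129), wild-type replicate 1 (0.102 to 0.145) or wild-type replicate 3 (0.0822 to 0.139), those of PDPR and SLC16A1 without wild-type replicate 2 (0.0652 to 0.0967), and that of SLC16A1 without knockout replicate 3 (0.0706).

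Of 12 tested genes of the HIF machinery beside the members, 3 rose and 0 fell, with a median log2 fold change of 0.12. ARNT, the partner of HIF1A, had 65.3, 64.9 and 63.3 CPM in knockout libraries, against 49.3, 52.3 and 47.4 CPM in wild-type libraries (log2 fold change 0.38, SE 0.06, edgeR adjusted p = 0.0127). EGLN2, a prolyl hydroxylase, rose by the same amount (0.38, edgeR adjusted p = 0.0218), and CITED2, which competes with HIF1A for its coactivators, rose more (0.56, edgeR adjusted p = 0.0118). The groups of the 3 genes did not overlap. Their calls were lost without wild-type replicate 1 (adjusted p 0.0631 to 0.0995) or wild-type replicate 3 (0.0550 to 0.0718), and that of EGLN2 also without wild-type replicate 2 (0.0512).

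Of 24 tested hypoxia-responsive genes outside the set, 3 rose and 5 fell, with a median log2 fold change of -0.02. The rises include GYS1, which is also counted among the glycogen enzymes below, as is PGM1, which was not called. VEGFA, the endothelial growth factor, had 356, 236 and 376 CPM in knockout libraries, against 726, 529 and 768 CPM in wild-type libraries (log2 fold change -1.06 ± 0.21 SE, adjusted p = 0.0176 by edgeR). ADM, adrenomedullin, had 77, 250 and 202 reads in knockout libraries, against 24, 13 and 34 reads in wild-type libraries (log2 fold change 2.89, SE 0.51, edgeR adjusted p = 0.0141). JMJD6, a 2-oxoglutarate-dependent hydroxylase, rose (0.68, edgeR adjusted p = 0.0102), and ZNF395 fell (-0.51, edgeR adjusted p = 0.0204). STC2, stanniocalcin, had 2, 0 and 3 reads in knockout libraries, against 21, 21 and 58 reads in wild-type libraries, and was called lower. The calls of VEGFA, ADM, JMJD6, ZNF395 and STC2 were lost without wild-type replicate 1 or wild-type replicate 3 (adjusted p 0.0510 to 0.0863 over both). That of STC2 was also lost without knockout replicate 1 (0.0518). Genes known to respond to hypoxia thus differed in both directions, as the members did.

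**Figure D5:**
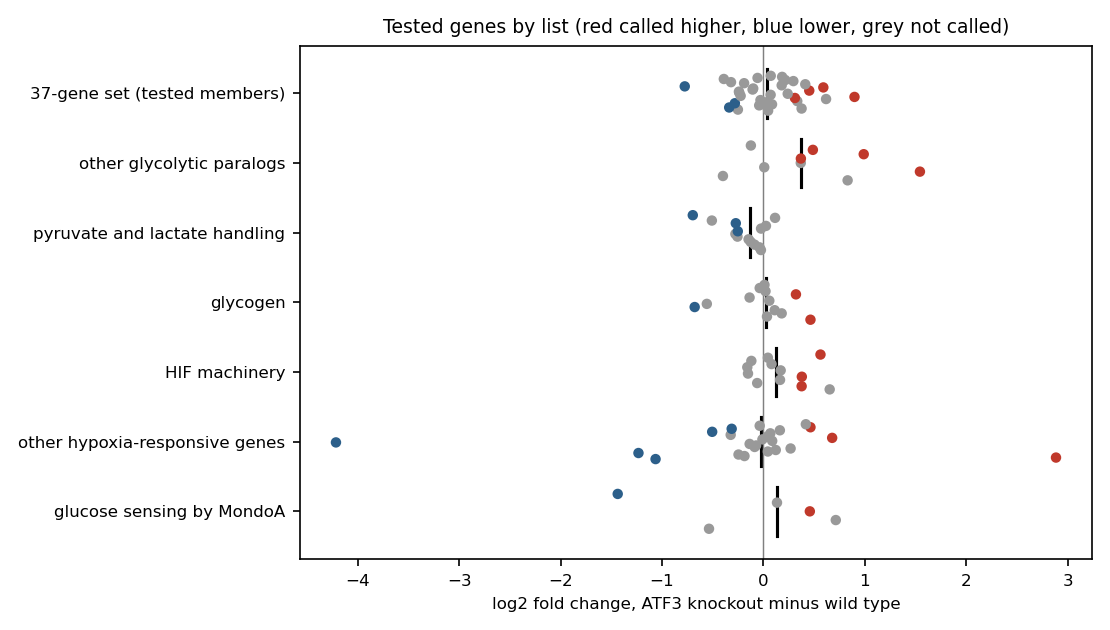
Log2 fold change, ATF3 knockout minus wild type, of each tested gene in the set of 37 and in 6 further lists; points are genes, red called higher, blue called lower and grey not called, and a vertical bar marks the median of each list. The medians lie between -0.14 for pyruvate and lactate handling and 0.37 for the other glycolytic paralogs, and ADM and STC2 lie farthest from 0.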

How the data were processed

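The 6 libraries were made from polyadenylated RNA with a stranded mRNA kit, per the labels. The authors deposited 1 transcript table per library with estimated counts, TPM, lengths and effective lengths of 177456 transcripts, per the file headers. The submitters' processing notes list hg38 as the build, Salmon 1.6.0 and FastQC 0.11.9. For the transcriptome release and strand setting, a value is not given in the sources used here. Of the deposited estimated counts above 0, 93.0% were not whole. The deposited TPM served as weights in the effective length offset and in the GC content of each gene. Beyond that it served only for values of short transcripts and for the levels of PDK1, PDK2, ALDOA and PKM. Its use was limited because few reads on short transcripts give high TPM.

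Transcripts were joined by identifier to GENCODE 29 (GRCh38), which may not be the authors' release: 167027 matched, 155671 in the same version. The 10429 without a gene held 3.59 to 3.82% of reads and stayed out. Counts were summed per gene and rounded. The test was edgeR 4.0.16 (quasi-likelihood, TMM, group as the sole term, filterByExpr with a minimum of 10 reads, Benjamini-Hochberg at 0.05; R 4.3.3), which left 4 residual degrees of freedom and a biological coefficient of variation of 16.8%. Fold changes are log2 of knockout over wild type. Levels between genes are CPM per kilobase of read-weighted effective length. Exact permutation tests were two-sided (SciPy 1.17.1). The scripts were tested on simulated data. Alternatives were DESeq2 1.42.0, limma-voom (limma 3.58.1), RLE and upper-quartile factors, no filter, effective length and GC offsets, library sizes with all reads, a replicate block and leaving out each library.

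The members and lists were chosen with earlier results of these data known. The text names every member, ATF3, and of each other list up to 3 genes called in each direction with the smallest p. Values or calls of BPGM, PGM1, TXNIP, ARRDC4, CTSG, FCGR1A, LYZ, VCAN and CD68 were added after they were seen. Transcripts are named for PKM, HK1, PFKFB3 and LDHA. The design text calls the cells a knockdown and the labels a knockout, and groups follow the labels. CAMP, a granule marker, was not in the joined table.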

Additional observations from a re-analysis of the deposited data

How the results depend on the processing

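The 7 called members kept their direction under all 15 alternatives except that with effective lengths as an offset PFKP was 0.19 and PFKFB3 -0.85, neither past the threshold; the short transcripts involved are given above. That offset lowered the calls over all genes to 722 higher and 661 lower, against 1494 and 1276. Leaving out 1 library at a time gave 0 to 1370 genes higher and 0 to 1388 lower, and 0 to 4 members higher and 0 to 6 lower. Without wild-type replicate 1 edgeR called 0 genes (smallest adjusted p 0.0503), with 3496 at an unadjusted p below 0.05, and without wild-type replicate 3 it called 210 higher and 148 lower, of which PFKFB4 and PDK1 were the members. Without knockout replicate 3, ENO1, GAPDH, PFKFB2 and EGLN1 were called as well and PKM was not. With the GC trend removed PKM and PFKFB3 were lost and BNIP3L, GAPDH and KDM3A gained, and the effective length offset gained KDM3A and EGLN1. Of member transcripts, edgeR called 0 and DESeq2 15, the latter without a count over all transcripts beside it. Without wild-type replicate 2, edgeR called 1342 genes higher and 1131 lower. On the first principal component, wild-type replicates 1 to 3 lay at 37.9, 13.5 and 34.9, and knockout replicates 1 to 3 at -29.8, -35.5 and -21.0. Wild-type replicate 2 was thus the wild-type library nearest to the knockout libraries. With 2 libraries in a group and 3 in the other, each of these fits has fewer degrees of freedom, whichever library is left out. The cause of the lost calls was not tested.

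The labels do not say that a shared replicate number marks a shared culture, so the numbers were not taken to pair the samples. Deviations of same-numbered libraries of the groups had correlations of -0.09, 0.11 and 0.20 for replicates 1, 2 and 3. Between libraries of different number the correlations ran from -0.24 to 0.17. With 3 libraries per group, these values cannot decide whether the samples are paired. With the replicate number as a block, 1225 genes were called higher and 1093 lower, and among members 4 higher and 3 lower, with PFKP (adjusted p = 0.0694) and PFKFB3 (0.0552) lost and GAPDH and PGAM1 gained. The limits lie in 3 libraries per group and in estimated counts: members with few reads, such as PDK3, PFKFB2 and BNIP3, have wide intervals, and reads shared with overlapping genes or pseudogenes cannot be separated here.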

Other observations

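Glycogen enzymes, which store and release glucose units, differed in both directions. Of 12 tested, 2 rose and 1 fell, with a median log2 fold change of 0.03. GYS1, glycogen synthase, had 69.3, 61.6 and 66.8 CPM in knockout libraries, against 43.8, 52.0 and 47.5 CPM in wild-type libraries (log2 fold change 0.46, SE 0.09, edgeR adjusted p = 0.0152). PYGB, the brain-type glycogen phosphorylase that releases glucose units, had 88.1, 71.5 and 85.1 CPM in knockout libraries, against 139, 125 and 128 CPM in wild-type libraries (log2 fold change -0.68, SE 0.09, edgeR adjusted p = 0.0093). PHKG2, a catalytic subunit of phosphorylase kinase, rose as well (0.32, edgeR adjusted p = 0.0377). The groups of all 3 genes were without overlap. Their calls were lost without wild-type replicate 1 (adjusted p 0.0510 to 0.131), those of GYS1 and PHKG2 without wild-type replicate 3 (0.0669 to 0.143), and that of PHKG2 without knockout replicate 1 (0.0760), knockout replicate 3 (0.0630) or wild-type replicate 2 (0.0623).

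MondoA, encoded by MLXIP, is a transcription factor that senses glucose phosphate and controls TXNIP and the related arrestins. Of 5 tested genes of this group, 1 rose and 1 fell, with a median log2 fold change of 0.13. TXNIP (log2 fold change -0.54, edgeR adjusted p = 0.0875, groups without overlap) and ARRDC4 (0.71, edgeR adjusted p = 0.148) were not called. MLXIP had 100.04, 105 and 103 CPM in knockout libraries, against 69.7, 80.7 and 73.8 CPM in wild-type libraries (log2 fold change 0.46, SE 0.07, edgeR adjusted p = 0.0110), and the call was lost without wild-type replicate 1 (adjusted p = 0.0598) or wild-type replicate 3 (0.0545). ARRDC3 fell to 35, 28 and 28 reads in knockout libraries, against 105, 41 and 104 reads in wild-type libraries (log2 fold change -1.44, SE 0.40, edgeR adjusted p = 0.0460). That call was lost without any of knockout replicate 1 (adjusted p = 0.0893), knockout replicate 2 (0.117), knockout replicate 3 (0.0968), wild-type replicate 1 (0.158) or wild-type replicate 3 (0.150).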
